A study of Drosophila melanogaster with 6 samples.

Results

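Genes of mitochondrial and peroxisomal fatty acid oxidation were examined in the adult female fat body of *Drosophila melanogaster*. They were chosen by name, from a list of 36 names, and 31 of these names were found among the 17558 genes of the deposited tables. Of the 31 genes, 16 encode mitochondrial proteins, 8 encode peroxisomal proteins, and 7 belong to the enoyl-CoA hydratase and isomerase family and were assigned to neither compartment. Among the names not found, *Mcad* and *Echs1* are newer names of *CG12262* and *CG6543*, which are already included, and *CPT2*, *Had1* and *Had2* were matched by identifier to *CG2107*, *CG9914* and *CG10131* and are described apart.

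RNA was sequenced from 3 *svp* RNAi and 3 control RNAi libraries. All females were *y w* and carried *PromE800-Gal4*, which is active in oenocytes, an adipocyte-specific *Lsp2* Gal4 driver and the temperature-sensitive repressor *tubGal80ts*. The tested hairpin was *UAS-svp GD1546*, directed at the transcript of the nuclear receptor Svp, and the control hairpin was *UAS-Luc JF01355*, directed at a firefly luciferase that flies do not have. The sample labels call the control genotype wild type. Females were raised at 18 °C and were 0 to 2 days old when collected. They stayed at 18 °C for another 3 days together with *y w* males, and were then kept at 29 °C for 5 days to release the hairpins. Wet yeast paste was added to the food of both groups. The abdominal carcasses from which cells were dissociated came from 100 females per genotype, and the libraries of a group came from independent experiments. Each hairpin was represented by a single transgene, so a difference between the groups cannot be told apart from a difference between the 2 transgenes.

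Fatty acids that are released from stored fat are joined to coenzyme A and shortened from the carboxyl end. In mitochondria, acyl groups enter through the carnitine shuttle and pass through repeated rounds of dehydrogenation, hydration, a further dehydrogenation and thiolysis, and the electrons of the opening step reach the respiratory chain through the electron transfer flavoprotein. In peroxisomes the opening step is made by acyl-CoA oxidases, which hand electrons to oxygen and release hydrogen peroxide, and a multifunctional enzyme and a thiolase complete the round. The insect fat body combines the tasks of liver and adipose tissue, and the attached oenocytes process very long fatty acids into the hydrocarbons of the cuticle.

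Total gene counts ran from 15648948 to 19476599 per library, and TMM scaling factors, which correct library totals for differences in composition, ranged from 0.824 to 1.39. The *svp* transcript itself had 1480, 1214 and 1421 counts in *svp* RNAi libraries, against 678, 1141 and 1168 counts in control RNAi libraries, so that a lower level was not measured in these libraries (log2 fold change 0.35, SE 0.39). The 95% interval, -0.57 to 1.28, also holds modest decreases, and the study's RT-qPCR of *svp* was not analysed here. Directions are therefore given between the groups as labelled. Control RNAi replicates 1 and 2 stood apart from the other libraries in markers of cell types, and *svp* RNAi replicate 3 did so in most midgut markers. The 8 adult fat body markers, which include the yolk proteins, summed to 151800, 188300 and 148300 CPM (counts relative to the library total, scaled by TMM) in *svp* RNAi libraries, against 63680, 136000 and 184100 CPM in control RNAi libraries. The 9 midgut markers summed to 502, 617 and 1143 CPM in *svp* RNAi libraries, against 1846, 283 and 353 CPM in control RNAi libraries. *Amy-p* alone made 464, 611 and 465 CPM in *svp* RNAi libraries, against 353, 274 and 346 CPM in control RNAi libraries. It was fitted higher in *svp* RNAi, whereas 7 of the 8 midgut markers tested were fitted lower. Those 7 were highest in control RNAi replicate 1 and next highest in *svp* RNAi replicate 3. Control RNAi replicate 1 was thus lowest in the fat body sum, which was mostly yolk proteins, and highest in the midgut sum. The fat body marker *Tsf1* had another order. It had 3710, 6540 and 3240 CPM in *svp* RNAi libraries, against 5120, 13000 and 19300 CPM in control RNAi libraries (log2 fold change -1.47, edgeR unadjusted p = 0.0436). Of the 8 fat body markers, 6 were fitted higher and 2 lower in *svp* RNAi. Muscle, a tissue that also oxidizes fatty acids, was represented by markers that summed to 599, 822 and 673 CPM in *svp* RNAi libraries, against 329, 2189 and 721 CPM in control RNAi libraries, highest in control RNAi replicate 2, and 12 of the 13 muscle markers tested were fitted lower in *svp* RNAi (median log2 fold change -0.61, 0 called). The 6 oenocyte markers summed to between 10140 and 15190 CPM in *svp* RNAi libraries and between 4795 and 21580 CPM in control RNAi libraries. In RNA from whole tissue, fewer cells of a type and less RNA per cell cannot be told apart.

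None of the fatty acid oxidation genes differed between *svp* RNAi and control RNAi at an adjusted p under 0.05 (edgeR's quasi-likelihood test, 0 of 31, with 1 of 31 at an unadjusted p under 0.05). Over the 9277 genes tested, this call was made for 9 genes, or 0.097%, and the unadjusted p was under 0.05 for 463 genes, or 4.99%. DESeq2 called 153 of 10543 genes, or 1.45%, and 0 of the 31. All 31 genes passed the filter on low counts. Of these, 17 were fitted higher and 14 lower in *svp* RNAi, with a median log2 fold change of 0.02, beside a median of -0.06 over all genes tested.

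For the 16 mitochondrial genes the median log2 fold change was 0.06, with 11 fitted higher and 5 lower and a range of -0.34 to 0.93. The 8 peroxisomal genes had a median of -0.06, with 3 fitted higher and 5 lower and a range of -0.55 to 0.13. The library medians of these lists varied within a group with an SD of 0.25 for mitochondrial and 0.33 for peroxisomal genes on the log2 scale. Each SD describes a single list, and both lists come from the same libraries, so neither measures the spread of their difference. The peroxisomal over the mitochondrial FPKM sum within a library overlapped between the groups (0.160 to 0.169 in *svp* RNAi, 0.156 to 0.190 in control RNAi). The hydratase and isomerase family had a median of -0.07, with 3 of 7 genes fitted higher.

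For most of these genes the libraries bounded the difference. The 95% interval of the fold change excluded both a 2-fold increase and a 2-fold decrease for 24 of the 31 genes, whereas it did so for 4494 of all genes tested, or 48.4%. The counts were 12 of 16 for mitochondrial genes, 6 of 8 for peroxisomal genes and 6 of 7 for the family. The standard error of the log2 fold change was 0.248 at the median over the 31 genes, beside 0.348 over all genes tested. The 31 genes also had a higher median level, 50.0 FPKM beside 11.4 FPKM over all genes tested. These shares and standard errors were not matched for level. The intervals that reached a 2-fold change in either direction belonged to *CG12262*, *CG3902*, *CG9547*, *CG7834*, *CG4586*, *CG17544* and *CG4594*, named here because of their intervals.

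**Figure D1:**
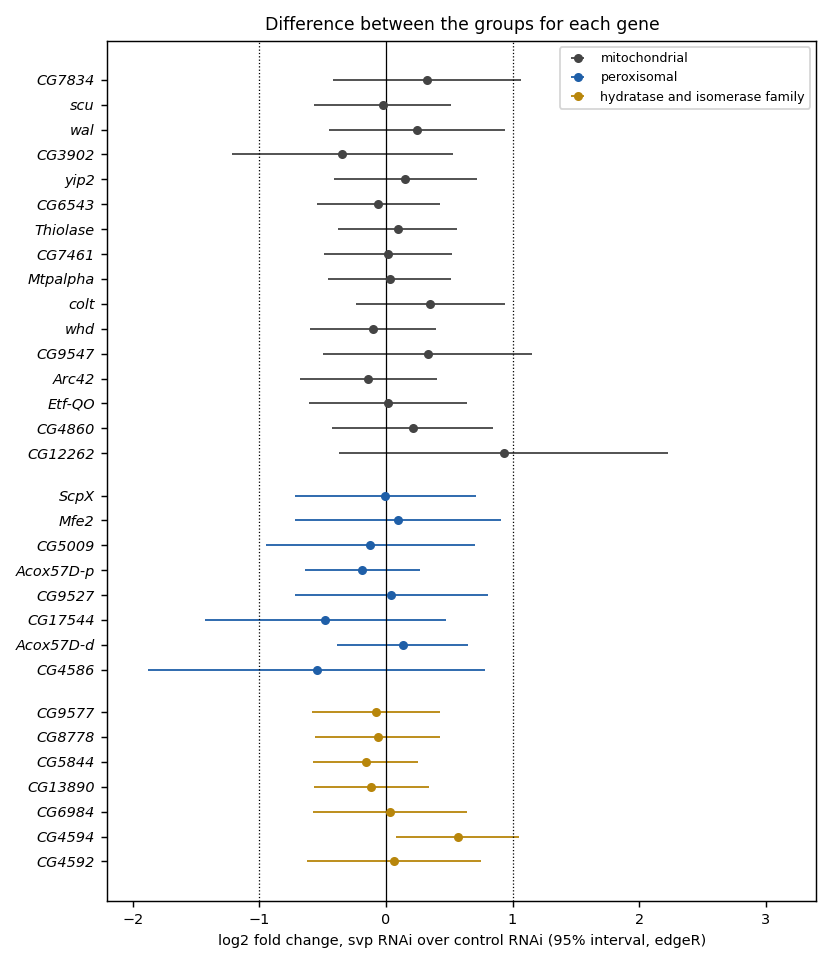
Log2 fold change of each gene, *svp* RNAi over control RNAi, with its 95% interval from edgeR (points and bars, coloured by group of genes); dotted lines mark a 2-fold change. The intervals of 24 of 31 genes lie between the dotted lines, and only that of *CG4594* does not cross 0.

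Levels were compared between genes as FPKM, which relate a count to gene length and library total, divided here by the TMM factor. The mean over the 6 libraries ranged from 0.385 FPKM for *CG12262* to 218 FPKM for *CG7834*, and 28 of 31 genes lay above the median of all genes tested, 11.4 FPKM. The 7 genes with a mean of at least 100 FPKM were all mitochondrial. Median levels were 84.8 FPKM over mitochondrial genes, 25.8 FPKM over peroxisomal genes and 19.1 FPKM over the family.

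**Figure D2:**
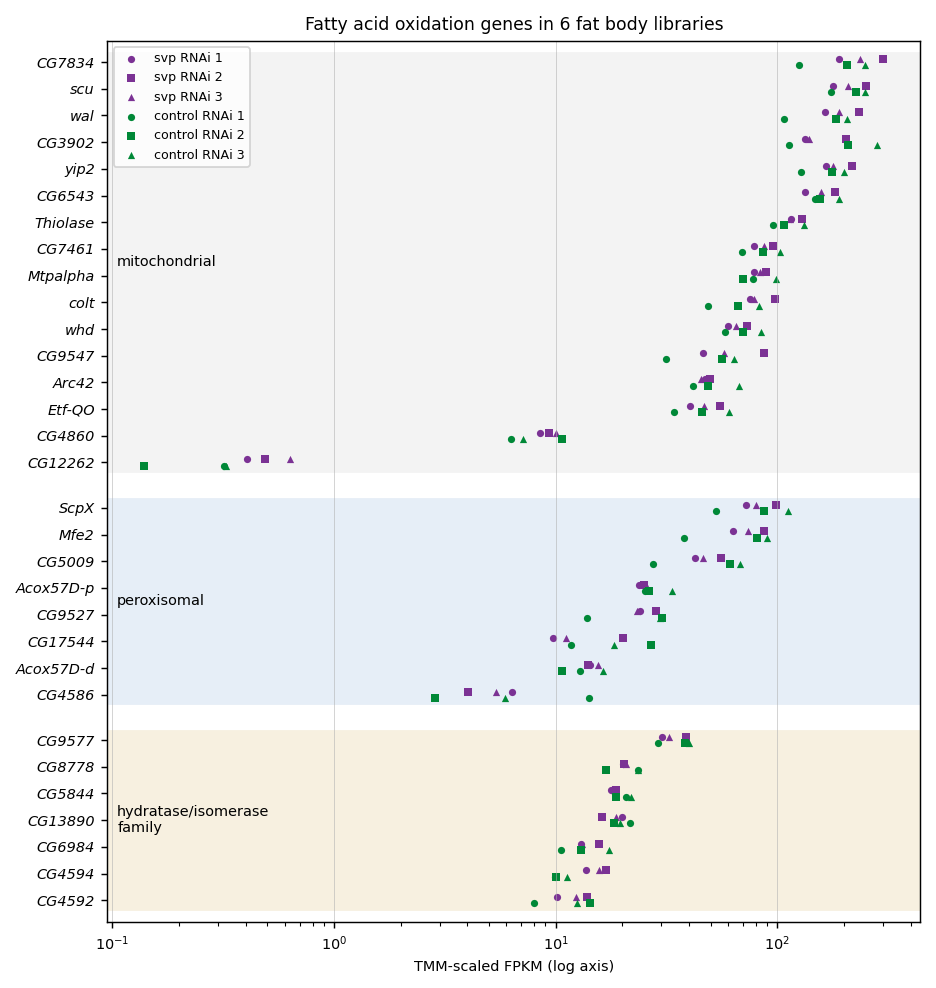
TMM-scaled FPKM (log axis) of the 31 genes in each library, with *svp* RNAi libraries (purple) drawn above control RNAi libraries (green) for each gene and replicates 1, 2 and 3 as circles, squares and triangles. Levels of mitochondrial genes run up to a mean of 218 FPKM, and the lowest point of 21 genes is control RNAi replicate 1.

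Genes of the carnitine shuttle overlapped between the groups. *whd* (FBgn0261862; chromosome 2R from 10469473 to 10478567, BDGP6), which encodes the carnitine palmitoyltransferase of the outer mitochondrial membrane and controls entry into the pathway, had 60.1, 72.7 and 65.2 FPKM in *svp* RNAi libraries, against 58.0, 69.9 and 84.7 FPKM in control RNAi libraries. The control values enclosed the *svp* RNAi values (log2 fold change -0.10, SE 0.21, 95% interval -0.60 to 0.40). *colt* (FBgn0019830; chromosome 2L from 2768590 to 2770069) encodes the carrier that exchanges acylcarnitine for carnitine across the inner membrane. Its levels were 75.7, 98.0 and 78.4 FPKM in *svp* RNAi libraries, against 48.6, 66.6 and 82.7 FPKM in control RNAi libraries. The highest control library lay inside the *svp* RNAi range, and the log2 fold change of 0.35 (SE 0.25, edgeR unadjusted p = 0.202) was not past the threshold.

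*CPT2*, listed as *CG2107* and matched by identifier only, encodes the carnitine palmitoyltransferase of the inner membrane. It had 22.2, 28.9 and 23.4 FPKM in *svp* RNAi libraries, against 16.1, 23.4 and 25.8 FPKM in control RNAi libraries (log2 fold change 0.19, SE 0.24). The ranges overlapped, as they did for *whd* and *colt*.

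Acyl-CoA dehydrogenases make the opening oxidation in mitochondria, each on a range of chain lengths. *CG7461* (FBgn0034432; chromosome 2R from 19305172 to 19307445), similar to the human very-long-chain enzyme, had 78.8, 95.5 and 87.0 FPKM in *svp* RNAi libraries, against 69.4, 86.3 and 103 FPKM in control RNAi libraries. Its group means, 87.1 ± 8.36 FPKM in *svp* RNAi and 86.0 ± 16.6 FPKM in control RNAi (SD, n = 3 each), differed by less than the spread between replicates, with a log2 fold change of 0.02 (95% interval -0.49 to 0.52). *Arc42*, *CG4860*, *CG9547* and *CG3902*, whose human counterparts act on short, branched or glutaryl chains, had log2 fold changes from -0.34 for *CG3902* to 0.33 for *CG9547*.

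*CG3902* was the dehydrogenase with the highest level and is given in full after its values were seen. It had 134, 204 and 138 FPKM in *svp* RNAi libraries, against 113, 209 and 282 FPKM in control RNAi libraries. Control RNAi replicates 1 and 3 marked the ends of that range, a 2.50-fold span that contained all *svp* RNAi values. Its log2 fold change was -0.34 (SE 0.37, edgeR adjusted p = 1), and it rested on single control RNAi libraries. It was -0.59 without control RNAi replicate 1 (edgeR unadjusted p = 0.048, adjusted p = 0.36) and -0.02 without control RNAi replicate 3 (edgeR unadjusted p = 0.954). Quality weights for each library in limma voom were an analysis added once the data had been seen. They gave control RNAi replicate 1 a weight of 0.138, control RNAi replicate 3 a weight of 3.4 and *svp* RNAi replicate 3 a weight of 4.46. With these weights the log2 fold change of *CG3902* was -0.89 (limma voom adjusted p = 0.0342), the only call among the 31 genes in the fits that were run. The same fit called 604 of the 9277 genes tested.

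*CG12262* (FBgn0035811; chromosome 3L from 7719350 to 7721472, plus strand), now named *Mcad* after the medium-chain dehydrogenase, had the largest fitted increase and the lowest level. Its counts were 13, 10 and 16 in *svp* RNAi libraries, against 11, 3 and 7 in control RNAi libraries, or 0.403, 0.490 and 0.635 FPKM in *svp* RNAi, against 0.320, 0.139 and 0.324 FPKM in control RNAi. The counts overlapped, and the scaled levels did not, because the total of control RNAi replicate 1 was scaled by a TMM factor of 1.39. With so few counts the log2 fold change of 0.93 had an SE of 0.55 and a 95% interval from -0.37 to 2.23 (edgeR unadjusted p = 0.134). The count of control RNAi replicate 2 lies at the limit of 3 counts that a count of 0 allows.

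The level of *CG12262* is limited by how genes were counted. In the reference annotation, 1353 of its 1461 exon bases (92.6%) are also exon bases of *CG7457* on the minus strand, and only its 108-base opening exon is its own. Where strand is not used, reads of the 2 genes in the shared bases cannot be told apart, and the strand setting was not given in the sources used here. Of 13693 protein-coding genes, 485 (3.54%) share more than 90% of their exon bases with another gene. Among those, 431 had at most 3 counts in every library, and the median total over the 6 libraries was 0 counts, beside 885 counts for the other protein-coding genes. The part of this overlap in the low level of *CG12262* was not tested.

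**Figure D3:**
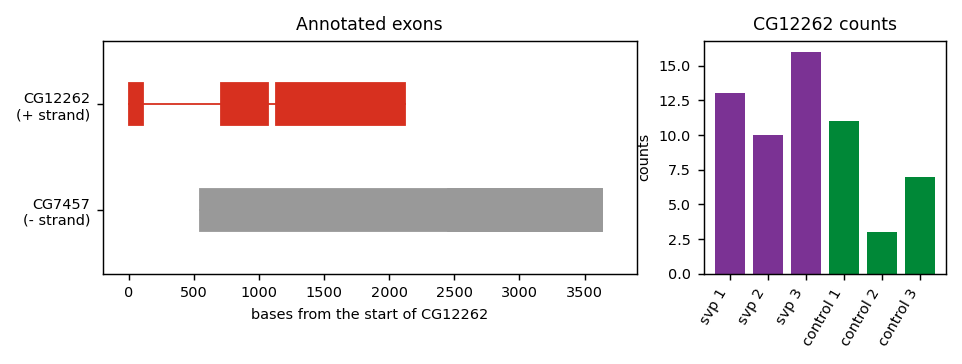
Left, annotated exons (boxes) of *CG12262* and *CG7457*, in bases from the start of *CG12262*; right, counts of *CG12262* in each library, *svp* RNAi in purple and control RNAi in green. The larger exons of *CG12262* lie within an exon of *CG7457* on the other strand, and counts run from 10 to 16 in *svp* RNAi libraries and from 3 to 11 in control RNAi libraries.

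The later mitochondrial steps were the most even across libraries, with a 1.38-fold range of summed CPM, against 1.53-fold for the carnitine shuttle, 1.96-fold for the acyl-CoA dehydrogenases and 2.14-fold for the electron transfer flavoprotein branch. *Mtpalpha* (FBgn0028479; chromosome 2L from 9573563 to 9576769) and *Thiolase* (FBgn0025352; chromosome 2R from 23866648 to 23868603) encode the alpha and beta subunits of the trifunctional protein, which carries long chains through hydration, dehydrogenation and thiolysis. *Mtpalpha* had 78.4, 89.2 and 83.7 FPKM in *svp* RNAi libraries, against 77.6, 69.8 and 98.9 FPKM in control RNAi libraries (log2 fold change 0.03, SE 0.20). *Thiolase* had 115, 129 and 114 FPKM in *svp* RNAi libraries, against 95.8, 108 and 133 FPKM in control RNAi libraries (log2 fold change 0.09, SE 0.20). The ratio of the alpha to the beta subunit was 0.682, 0.690 and 0.732 in *svp* RNAi libraries and 0.809, 0.647 and 0.746 in control RNAi libraries, so the subunits kept within a 1.25-fold range of ratios in the 6 libraries.

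*yip2* (FBgn0040064; chromosome 2L from 9915253 to 9917220), similar to the human mitochondrial ketoacyl-CoA thiolase, had 165, 218 and 178 FPKM in *svp* RNAi libraries, against 129, 176 and 200 FPKM in control RNAi libraries. These ranges overlapped (log2 fold change 0.15, SE 0.24, 95% interval -0.41 to 0.72). *scu*, a hydroxyacyl-CoA dehydrogenase, and *CG6543*, the short-chain enoyl-CoA hydratase, had log2 fold changes of -0.02 and -0.06. All 5 genes of these steps had intervals inside a 2-fold change in either direction.

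Electron transfer from the dehydrogenases to ubiquinone depends on *wal* and *CG7834*, which encode the alpha and beta subunits of the electron transfer flavoprotein, and on *Etf-QO*, its ubiquinone oxidoreductase. *wal* (FBgn0010516; chromosome 2R from 11688569 to 11690863) had 165, 234 and 190 FPKM in *svp* RNAi libraries, against 108, 184 and 205 FPKM in control RNAi libraries (log2 fold change 0.25, SE 0.29). *CG7834* (FBgn0039697; chromosome 3R from 29801599 to 29802945) had 190, 302 and 236 FPKM in *svp* RNAi libraries, against 125, 206 and 250 FPKM in control RNAi libraries (log2 fold change 0.32, SE 0.31). In both subunits control RNAi replicate 1 was lowest and *svp* RNAi replicate 2 highest. Their ratio, alpha over beta, was 0.869, 0.777 and 0.805 in *svp* RNAi libraries and 0.860, 0.893 and 0.822 in control RNAi libraries. This was a 1.15-fold range, although each subunit alone ranged 2.18-fold and 2.41-fold. The ranges of the subunit ratios, here and for the trifunctional protein, were not compared with those of other gene pairs. *Etf-QO* (FBgn0033465; chromosome 2R from 9910893 to 9913488) had 40.2, 55.4 and 46.8 FPKM in *svp* RNAi libraries, against 34.1, 45.9 and 60.7 FPKM in control RNAi libraries (log2 fold change 0.02, SE 0.26).

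Peroxisomal acyl-CoA oxidases were 6 genes, of which 2 were fitted higher and 4 lower. *CG5009* (FBgn0027572; chromosome 2R from 17760940 to 17764541), the most abundant of them and similar to the main human oxidase, had 42.5, 55.6 and 46.1 FPKM in *svp* RNAi libraries, against 27.6, 61.4 and 67.9 FPKM in control RNAi libraries. Control RNAi replicate 1 was below and the other control RNAi libraries were above every *svp* RNAi library (log2 fold change -0.12, SE 0.35). Without control RNAi replicate 1 the log2 fold change of *CG5009* was -0.39 (edgeR unadjusted p = 0.0607, adjusted p = 0.385). *CG9527* and *CG17544* had log2 fold changes of 0.04 and -0.48, the second with a 95% interval from -1.43 to 0.47. The value of *CG17544* rested on single libraries. It was -0.87 without *svp* RNAi replicate 2, -0.71 without control RNAi replicate 1 and -0.15 without control RNAi replicate 2, and 0 of these fits called it. *CG17544* was highest in control RNAi replicate 2, as were the summed muscle, oenocyte, neuron and Malpighian tubule markers. The tubule sum there, 251.9 CPM, was mostly *Aph-4* (243 CPM), whereas the tubule markers *Uro* (5.43 CPM) and *Irk3* (2.58 CPM) were lowest in that library. The part of RNA from these cell types in the level of *CG17544* was not tested.

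*Acox57D-p* (FBgn0034628; chromosome 2R from 21386309 to 21389276) and *Acox57D-d* (FBgn0034629; chromosome 2R from 21389405 to 21392439) lie in tandem, with 128 bases between them. *Acox57D-p* had 23.9, 25.2 and 25.7 FPKM in *svp* RNAi libraries, against 25.2, 26.3 and 33.6 FPKM in control RNAi libraries (log2 fold change -0.19, SE 0.19). *Acox57D-d* had 14.3, 14.0 and 15.5 FPKM in *svp* RNAi libraries, against 12.9, 10.7 and 16.4 FPKM in control RNAi libraries (log2 fold change 0.13, SE 0.22). Neither gene differed past the threshold, whereas the ratio of proximal to distal gene, 1.67, 1.80 and 1.66 in *svp* RNAi libraries, lay below 1.96, 2.46 and 2.05 in control RNAi libraries. Ratios of neighbouring genes on the same strand within 1000 bases did not overlap between the groups for 282 of 2098 pairs, or 13.4%, and for 1 of the 2 such pairs among these genes. The paralogs could also share reads, and how reads with several matches were treated is not given in the sources used here.

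*CG4586* (FBgn0029924; chromosome X from 6969918 to 6972265) was the oxidase with the largest fitted decrease and followed a library order of its own. It had 6.35, 4.03 and 5.36 FPKM in *svp* RNAi libraries, against 14.2, 2.85 and 5.89 FPKM in control RNAi libraries. Control RNAi libraries supplied both the highest and the lowest value, and the log2 fold change was -0.55 (SE 0.56, 95% interval -1.88 to 0.78). Without control RNAi replicate 1, which was 3.25-fold above the mean of the other control RNAi libraries, the log2 fold change was 0.31. Among the 12 ovary markers, all detected in each library, the 5 germline transcripts (*osk*, *nos*, *vas*, *bcd* and *exu*) were highest in control RNAi replicate 1, and 4 of them, all but *nos*, were lowest in control RNAi replicate 2, the libraries in which *CG4586* was highest and lowest. The 7 eggshell transcripts had another order, with 6 highest in an *svp* RNAi library and 5 lowest in control RNAi replicate 3. Summed, the 12 markers had between 957 and 2324 CPM in *svp* RNAi libraries and between 491 and 1619 CPM in control RNAi libraries. The division into germline and eggshell transcripts was made after their values were seen. The midgut marker sum was also highest in control RNAi replicate 1 and lowest in control RNAi replicate 2 (1846 and 283 CPM), the latter mostly *Amy-p*. The part of ovarian or midgut RNA in the values of *CG4586* was not tested.

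*Mfe2* and *ScpX* complete the peroxisomal round. *Mfe2* (FBgn0030731; chromosome X from 16270951 to 16273815), the multifunctional enzyme that hydrates and dehydrogenates the chain, had 63.2, 86.8 and 73.6 FPKM in *svp* RNAi libraries, against 37.8, 81.1 and 90.2 FPKM in control RNAi libraries (log2 fold change 0.10, SE 0.34). *ScpX* (FBgn0015808; chromosome 2L from 18831229 to 18833630), the sterol carrier protein X thiolase, had 72.4, 98.5 and 80.0 FPKM in *svp* RNAi libraries, against 53.2, 87.0 and 112 FPKM in control RNAi libraries. Its group means were 83.6 ± 13.5 FPKM in *svp* RNAi and 83.9 ± 29.3 FPKM in control RNAi (SD, n = 3 each). For both genes the control RNAi libraries reached below and above all *svp* RNAi libraries.

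Within the hydratase and isomerase family, *CG4594* (FBgn0032161; chromosome 2L from 9920160 to 9921459) was the only one of the 31 genes with an unadjusted p under 0.05. Its counts were 335, 260 and 299 in *svp* RNAi libraries, against 258, 163 and 184 in control RNAi libraries. In FPKM it had 13.8, 16.9 and 15.7 in *svp* RNAi libraries, all above 9.97, 10.0 and 11.3 in control RNAi libraries. The fold change was 1.48 (95% interval 1.06 to 2.07), with a log2 fold change of 0.57 (SE 0.20, edgeR unadjusted p = 0.0279, adjusted p = 0.818). Leaving out single libraries gave log2 fold changes of *CG4594* between 0.50 and 0.64. In TMM-scaled CPM, a lack of overlap with higher values in *svp* RNAi was found for 418 of all genes tested, or 4.51%, and for 2 of the 31 genes, *CG4594* and *CG12262*. A lack of overlap with lower values in *svp* RNAi was found for 447 genes, or 4.82%, and for 0 of the 31.

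The neighbour of *CG4594* on the same strand, 173 bases downstream, is *CG4592*, a member of the same family, given here after its values were seen. *CG4592* had 10.2, 13.9 and 12.4 FPKM in *svp* RNAi libraries, against 7.96, 14.4 and 12.5 FPKM in control RNAi libraries (log2 fold change 0.07, SE 0.29). The ratio of *CG4594* to *CG4592* was 1.35, 1.22 and 1.27 in *svp* RNAi libraries and 1.25, 0.699 and 0.903 in control RNAi libraries, and these ratios overlapped. The gene for the thiolase *yip2* ends 2939 bases before *CG4594* on the same strand. The other family genes, *CG13890*, *CG5844*, *CG9577*, *CG6984* and *CG8778*, had log2 fold changes from -0.16 for *CG5844* to 0.03 for *CG6984*, and each of their intervals excluded a 2-fold change in either direction.

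**Figure D4:**
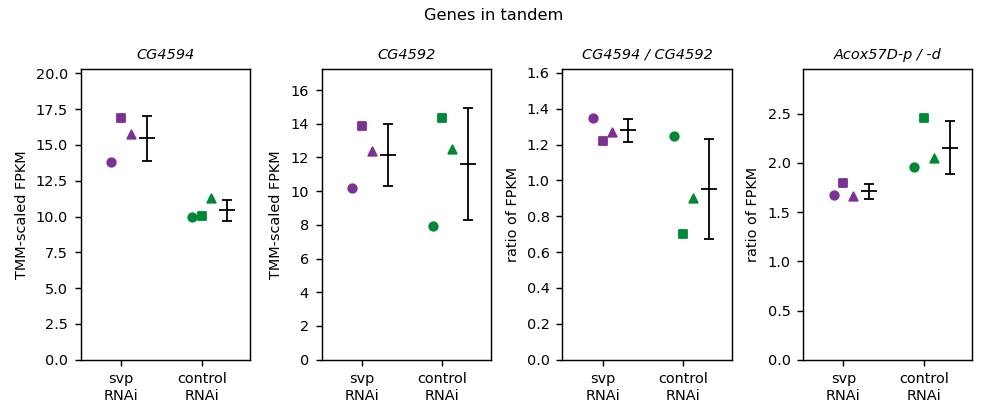
TMM-scaled FPKM of *CG4594* and *CG4592*, and the ratios of FPKM for both tandem pairs, by library (circle, square and triangle for replicates 1, 2 and 3), with group means and SD (black, n = 3) beside the points. *CG4594* and the *Acox57D* ratio do not overlap between *svp* RNAi and control RNAi, whereas *CG4592* and the ratio of *CG4594* to *CG4592* do.

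Control RNAi libraries varied more than *svp* RNAi libraries over the whole table, and fatty acid oxidation genes shared in this. Their coefficient of variation over replicates was 14.1% at the median in *svp* RNAi and 25.4% in control RNAi, beside medians of 18.8% in *svp* RNAi and 36.2% in control RNAi over all genes tested. It was larger in control RNAi for 27 of the 31 genes, or 87.1%, and for 82.5% of all genes tested. Control RNAi replicate 1 was the lowest library for 21 of the 31 genes, or 67.7%, whereas it was the lowest for 34.9% of all genes tested. Control RNAi replicate 3 was the highest for 17 genes, or 54.8%, beside 12.7% of all genes tested, and *svp* RNAi replicate 2 was the highest for 7. By compartment, control RNAi replicate 1 was lowest for 13 of 16 mitochondrial, 4 of 8 peroxisomal and 4 of 7 family genes.

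Summed over genes, the mitochondrial list had 1517, 2078 and 1699 FPKM in *svp* RNAi libraries, against 1262, 1718 and 2076 FPKM in control RNAi libraries. Means were 1765 ± 286 FPKM in *svp* RNAi and 1685 ± 408 FPKM in control RNAi (SD, n = 3 each). The peroxisomal list had 256, 333 and 280 FPKM in *svp* RNAi libraries, against 197, 326 and 374 FPKM in control RNAi libraries, with means of 289.8 ± 39.0 FPKM in *svp* RNAi and 298.8 ± 91.7 FPKM in control RNAi (SD, n = 3 each). Neither sum separated the groups. The peroxisomal sum over the mitochondrial sum was 0.169, 0.160 and 0.165 in *svp* RNAi libraries and 0.156, 0.190 and 0.180 in control RNAi libraries. Control RNAi replicate 1 was thus the lowest library in both sums, as it was in the sum of adult fat body markers, while the family sum ranged only 1.17-fold over the 6 libraries. It was also lowest in the sums of muscle, oenocyte, hemocyte and neuron markers (0.37, 0.352, 0.473 and 0.578 of the mean over the 6 libraries). The midgut, ovary and Malpighian tubule sums were lowest in other libraries. The part of fat body content, or of other tissues, in these differences between libraries was not tested.

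**Figure D5:**
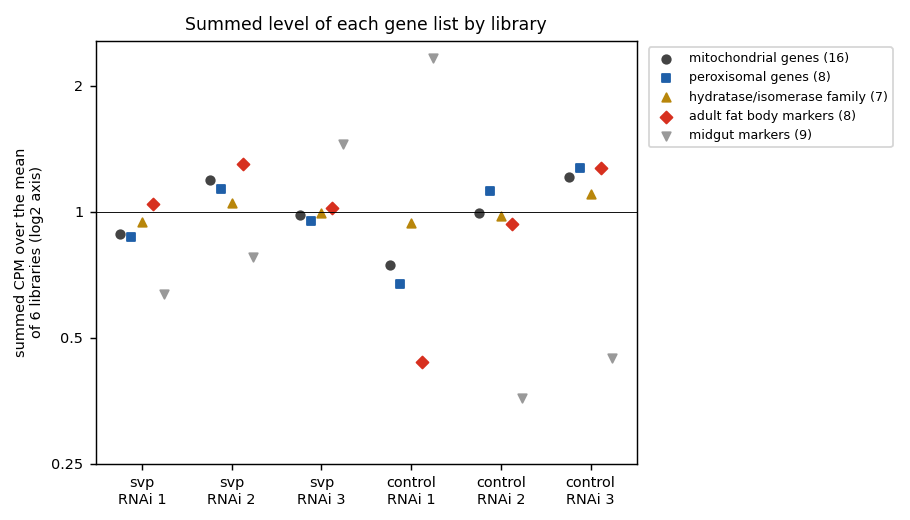
Summed CPM of each list in each library, relative to its mean over the 6 libraries (log2 axis); the number of genes in each list stands in the legend. Mitochondrial (0.744) and peroxisomal genes (0.670) and adult fat body markers (0.438) are lowest in control RNAi replicate 1, where midgut markers are highest (2.33). Muscle (0.37) and oenocyte markers (0.352), not drawn, are also lowest there.

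Without control RNAi replicate 1, the direction of the peroxisomal genes shifted further than that of the mitochondrial genes. The median log2 fold change was -0.21 for peroxisomal genes, with 6 of 8 fitted lower, and 0.03 for mitochondrial genes, with 7 of 16 fitted lower. Under that setting edgeR called 61 genes over the whole table and 0 of the 31. Leaving out control RNAi replicate 3 moved the medians the other way, to 0.16 for peroxisomal and 0.21 for mitochondrial genes. The sign of the peroxisomal median thus depended on the libraries used, *svp* RNAi replicate 1 included (0.017 without it). It also turned with the model, to 0.051 and 0.052 with limma on log2 FPKM. Without control RNAi replicate 2, highest in muscle and oenocyte markers, the medians were 0 for peroxisomal and 0.04 for mitochondrial genes. The mitochondrial median stayed above 0, between 0.006 and 0.207, when single libraries were left out, and was -0.157 with the quality weights.

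The other names matched by identifier, *Had2* and *Had1*, are hydroxyacyl-CoA dehydrogenases by name. *Had2*, listed as *CG10131*, had 38.9, 105 and 48.9 FPKM in *svp* RNAi libraries, against 35.9, 134 and 94.5 FPKM in control RNAi libraries (log2 fold change -0.46, SE 0.56). *Had1*, listed as *CG9914*, had 0 counts in each of the 6 libraries, which allows up to 3 counts in each. Of its exon bases 98.8% are shared with genes on the opposite strand, so its listed 0 carries the same limit as the level of *CG12262*.

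Steps before and beside oxidation were read from lists of related genes, none of which held a gene at an adjusted p under 0.05 in edgeR's test. The fit with quality weights, added after the data had been seen, called 604 of the 9277 genes tested. It called 3 of 9 lipolysis and lipid droplet, 2 of 7 ketone body and acetyl-CoA and 2 of 7 fatty acid synthesis genes. It also called 1 of 13 uptake and activation genes, 1 of 15 peroxisome biogenesis genes and 0 of 12 regulators. Of 9 lipolysis and lipid droplet genes, 3 were fitted higher and 6 lower in *svp* RNAi (median log2 fold change -0.11). The lowest unadjusted p there belonged to the lipase *Lip4*, with 10.2, 21.9 and 10.0 FPKM in *svp* RNAi libraries, against 14.0, 31.6 and 38.7 FPKM in control RNAi libraries (log2 fold change -1.0, SE 0.47). Among 13 genes of fatty acid uptake and activation the median was 0.07, and the acyl-CoA binding protein gene *CG15829* (*Acbp6*) had 20, 11 and 10 counts in *svp* RNAi libraries, against 33, 40 and 24 counts in control RNAi libraries (log2 fold change -1.32, SE 0.46, edgeR unadjusted p = 0.0247, adjusted p = 0.806). These counts did not overlap between the groups, and neither did the TMM-scaled CPM. The same lack of overlap, lower in *svp* RNAi, was found for 4.82% of all genes tested, and *CG15829* was named for the lowest p in its list.

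Of 15 peroxisome biogenesis and import genes, 0 were called in edgeR's test, with 5 fitted higher and 10 lower, a median log2 fold change of -0.05 and 13 of 15 intervals inside a 2-fold change. *Pex13*, part of the import channel, had 17.7, 17.4 and 19.4 FPKM in *svp* RNAi libraries, against 20.2, 23.5 and 24.0 FPKM in control RNAi libraries (log2 fold change -0.31, SE 0.18, edgeR unadjusted p = 0.121). Of 7 genes of ketone body and acetyl-CoA handling, 5 were fitted lower (median -0.23). *CG10932*, an acetoacetyl-CoA thiolase now named *Acat1*, had 33.0, 43.7 and 40.2 FPKM in *svp* RNAi libraries, against 44.2, 47.6 and 67.1 FPKM in control RNAi libraries (log2 fold change -0.44, SE 0.23, edgeR unadjusted p = 0.103). Both genes were lower in each *svp* RNAi library than in any control RNAi library, as were 447 of all genes tested, or 4.82%. They were named for the lowest p in their lists, and neither passed the threshold.

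Of 7 fatty acid synthesis genes, 5 were fitted higher (median log2 fold change 0.11). *CG17374* (*FASN3*), a fatty acid synthase of oenocytes that is also among the oenocyte markers above, had 49.5, 70.5 and 61.9 FPKM in *svp* RNAi libraries, against 10.3, 42.4 and 18.7 FPKM in control RNAi libraries (log2 fold change 1.35, SE 0.50, edgeR unadjusted p = 0.0325, adjusted p = 0.882). *CG17374*, named for the lowest p in its list, did not overlap between the groups. A lack of overlap with higher values in *svp* RNAi was found for 4.51% of all genes tested. Regulators of lipid metabolism numbered 12, with 9 fitted higher and a median of 0.04. *Hnf4*, a nuclear receptor that drives fatty acid oxidation genes in starved larvae and is given here after its values were seen, had 31.1, 35.7 and 31.6 FPKM in *svp* RNAi libraries, against 25.4, 37.8 and 35.5 FPKM in control RNAi libraries (log2 fold change -0.004, SE 0.21). Its groups overlapped, as did those of most fatty acid oxidation genes.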

How the data were processed

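Fat body RNA of 3 *svp* RNAi and 3 control RNAi libraries was analysed. Reads were aligned with TopHat and counted per gene with HTSeq, and a sequencing company made the libraries and the differential expression analysis. The counts were deposited as whole numbers. The strand setting, handling of multiple matches and tool versions are not given in the sources used here. The deposited FPKM equal the count over total and listed gene length for 10916 genes, and rest on a shorter length for the other 6642, at one ratio per gene in all libraries. Gene coordinates and names were matched to BDGP6.54 (17252 identifiers found, 16959 with equal coordinates, all of the 31 included).

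Counts were compared with edgeR 4.0.16 in R 4.3.3 (TMM, its expression filter on the group, quasi-likelihood test, Benjamini-Hochberg adjustment across the 9277 genes kept, threshold 0.05). The standard error is the log2 fold change over the root of F. Another 14 settings covered DESeq2 1.42.0, other scalings and filters, the replicate block, limma 3.58.1 on log2 FPKM plus 1 or 0.1, and each library left out, and quality weights in limma voom were added after the data had been seen. Fits were tested on simulated data. Precision follows from 15648948 to 19476599 counts per library, and a count of 0 allows 3 counts (0.128 to 0.215 CPM, counting error only).

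The genes and lists were chosen with earlier results of these data known. Full values are given for genes of the main route, for genes with an unadjusted p under 0.05 or no overlap, and for the largest fold change each way. Of each other pathway list, up to 2 genes with the lowest p may be named.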

Additional observations from a re-analysis of the deposited data

How the results depend on the processing

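Of the 31 genes, 0 were called under each of the 14 settings chosen at the start, and 1 (*CG3902*) with limma voom and sample quality weights, chosen after seeing the data. The genes called over the whole table numbered 14 with DESeq2's size factors, 153 with DESeq2, 25 with no filter on low counts, 55 and 53 with limma on log2 FPKM plus 1 and plus 0.1, and 604 with the quality weights. With the replicate number as a block they numbered 27. Libraries with the same number correlated in their deviations from the group means at 0.503, 0.538 and -0.306, so the numbers were not taken to pair them; under the block *ScpX* had a log2 fold change of 0.049, the peroxisomal median was 0.009 and *CG17544* had an unadjusted p of 0.0435 (edgeR adjusted p = 0.666). Left out in turn, the libraries gave between 3 and 61 genes called, 61 without control RNAi replicate 1. The median log2 fold change ranged from 0.006 to 0.207 for mitochondrial and from -0.208 to 0.155 for peroxisomal genes in these fits, and with quality weights it was -0.157 and -0.315. With limma on log2 FPKM the peroxisomal median was 0.051 and 0.052. Of 248 values of single genes under the remaining settings, 9 changed sign, all of them small. *scu* was 0.02 with upper quartile scaling and 0.019 in both limma fits, *ScpX* was 0.04, 0.089 and 0.09, and *CG5009* was 0.013 and 0.014 with limma. With quality weights 13 changed sign, to -0.116 for *CG9547*, -0.205 for *CG7461*, -0.173 for *Mtpalpha*, -0.141 for *Thiolase*, -0.122 for *yip2*, -0.324 for *Etf-QO*, -0.082 for *wal*, -0.054 for *CG7834*, -0.027 for *Acox57D-d*, -0.279 for *CG9527*, -0.264 for *Mfe2*, -0.079 for *CG4592* and -0.294 for *CG6984*. Leaving out a library changed the sign for 17 genes, with ranges of -0.16 to 0.085 for *scu*, -0.171 to 0.051 for *CG6543*, -0.209 to 0.253 for *ScpX*, -0.079 to 0.161 for *CG7461*, -0.077 to 0.184 for *Mtpalpha*, -0.128 to 0.246 for *Etf-QO*, -0.208 to 0.218 for *CG9527*, -0.165 to 0.324 for *Mfe2*, -0.117 to 0.246 for *CG4592*, -0.085 to 0.241 for *CG6984*, -0.94 to 0.314 for *CG4586*, -0.21 to 0.051 for *CG8778*, -0.006 to 0.307 for *Acox57D-d*, -0.393 to 0.109 for *CG5009*, -0.19 to 0.044 for *whd*, -0.244 to 0.078 for *Arc42* and -0.188 to 0.003 for *CG9577*. The quality weights were lowest for control RNAi replicate 1 (0.138) and highest for *svp* RNAi replicate 3 (4.46) and control RNAi replicate 3 (3.4). The cause of the sign changes was not tested.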
